A study of Mus musculus with 12 samples.

Results

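The lymphocyte homing and egress receptors Ccr7, Ccr6, Cxcr4 and S1pr1 were followed in regulatory T (Treg) cells and in microglia of the mouse. The 4 genes were found by their symbols. All 4 had a row among the 1284 genes of the Treg table, and 2 of them, Cxcr4 and S1pr1, had a row among the 2186 genes of the microglia table. Ccr6 and Ccr7 are not analysed here in microglia.

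Bulk messenger RNA was sequenced from 12 libraries in 4 groups of 3. Treg cells were taken from the injured spinal cord (n = 3) and from the spleen (n = 3) on day 14 after spinal cord injury, so that both Treg groups come from injured animals. Primary microglia were cultured without stimulation as the control (n = 3) or together with Treg cells (n = 3). Strain, age, sorting markers, the length of the co-culture and the origin of its Treg cells are not given in the sources used here, nor is it said whether the libraries are independent biological samples. The p-values therefore reflect the scatter of these libraries, which may be technical.

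All 4 receptors couple to G proteins and steer cell movement along gradients. CCR7 binds CCL19 and CCL21 and brings T cells and dendritic cells into lymph nodes and the T cell zones of the spleen. CCR6 binds CCL20 and guides Treg cells, T helper 17 cells and B cells to inflamed tissue and mucosa. CXCR4 binds CXCL12, which retains haematopoietic cells in the bone marrow and is also made in the central nervous system. S1PR1 senses sphingosine 1-phosphate (S1P), which is high in blood and lymph, and lets lymphocytes leave lymphoid organs. CD69 pulls S1PR1 from the cell surface, and the transcription factor KLF2 drives the gene.

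In GRCm38.p6 coordinates Ccr7 (NCBI gene 12775) lies on chromosome 11, 99144199 to 99155077, minus strand, and Ccr6 (gene 12458) on chromosome 17, 8236041 to 8258519, plus strand. Cxcr4 (gene 12767) lies on chromosome 1, 128588199 to 128592299, and S1pr1 (gene 13609) on chromosome 3, 115710433 to 115715055, both on the minus strand. In GENCODE M21, Ccr7 has 1 transcript of 3 exons, S1pr1 has 1 transcript of 2 exons, Cxcr4 has 2 transcripts of 2 exons each, and Ccr6 has 9 transcripts of 2 to 6 exons. No other annotated gene of that release overlaps any of them.

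The RefSeq promoter table of GRCm38.p6 held 3 windows for 2 of the 4 genes, Ccr6 and Cxcr4, each from 250 bases before to 50 bases after a transcript start. They are shown so that the start regions of these members can be read beside their levels. Capitals mark matches to any of 5 motifs that were searched on both strands and were chosen after the sequences were seen. One is CACCC, which Krüppel-like factors such as KLF2 are known to bind. Another is ACGTG, the core of the element through which hypoxia-inducible factors act. The GC box was searched as CCGCCC, which is bound by Sp factors in many promoters without tissue restriction. The TATA box, at which the basal transcription machinery assembles, was searched as TATAAA. The palindrome bound by activated STAT dimers was searched as TTCNNNGAA.

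Ccr6, window 1, chr17:8235793-8236092, plus strand: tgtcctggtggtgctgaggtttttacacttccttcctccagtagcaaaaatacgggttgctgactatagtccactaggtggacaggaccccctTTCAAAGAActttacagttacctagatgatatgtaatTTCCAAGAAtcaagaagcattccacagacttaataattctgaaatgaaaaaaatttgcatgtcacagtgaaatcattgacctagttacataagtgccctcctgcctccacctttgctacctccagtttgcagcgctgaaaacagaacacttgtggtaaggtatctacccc
Ccr6, window 2, chr17:8242276-8242575, plus strand: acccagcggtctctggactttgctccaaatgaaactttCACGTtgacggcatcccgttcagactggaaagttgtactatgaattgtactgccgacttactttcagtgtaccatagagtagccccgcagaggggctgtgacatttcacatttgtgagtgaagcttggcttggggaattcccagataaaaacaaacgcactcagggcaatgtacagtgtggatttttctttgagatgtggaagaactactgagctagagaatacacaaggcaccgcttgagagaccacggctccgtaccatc
Cxcr4, window 1, chr1:128592250-128592549, minus strand: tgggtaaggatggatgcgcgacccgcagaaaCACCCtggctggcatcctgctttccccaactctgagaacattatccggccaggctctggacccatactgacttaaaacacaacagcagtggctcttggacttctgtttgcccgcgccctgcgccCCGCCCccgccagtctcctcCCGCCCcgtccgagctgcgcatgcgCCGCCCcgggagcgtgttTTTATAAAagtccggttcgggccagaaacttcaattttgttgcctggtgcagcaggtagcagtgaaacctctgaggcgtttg

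The Cxcr4 window held 3 GC boxes, whose first bases lie 95, 75 and 50 bases before the start. It also held TATAAA 30 bases before the start, overlapping a match of the same motif on the other strand 32 bases before it, and 1 CACCC. The first Ccr6 window held the STAT palindrome at 157 and 120 bases before its start and none of the other 4 motifs, and the second held 1 hypoxia core on the reverse strand. Of 32851 RefSeq promoter windows of this length, 35.7% hold the GC box, 13.6% TATAAA, 57.5% CACCC, 19.6% ACGTG and 8.3% the STAT palindrome. The matches describe letters in a window and not binding.

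In Treg cells all 4 receptor genes stood higher in the injured cord than in the spleen in every library. For Ccr7, the lymph node homing receptor, the spleen libraries gave 434, 423 and 425 FPKM and the cord libraries 2065, 1603 and 1917 FPKM (FPKM is a fragment count per transcript length and library total). Spleen libraries lay close together, and the lowest spinal cord library was far above the highest spleen library. The mean was 4.35-fold higher in the cord, and the log2 fold change came to 2.11 ± 0.13 (SE, Benjamini-Hochberg adjusted p = 2.21e-07 in limma). Log2 fold changes refer throughout to log2(FPKM + 1), a scale on which low genes appear to change less than they do.

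For S1pr1, the egress receptor, the spleen libraries gave 11.6, 8.41 and 12.7 FPKM and the cord libraries 59.4, 44.0 and 68.8 FPKM. Its means were 10.9 ± 2.23 and 57.4 ± 12.5 FPKM (SD, n = 3 each), and the groups did not overlap. Its log2 fold change of 2.29 ± 0.24 (SE, adjusted p = 7.41e-06 in limma) lay above those of Ccr7 and Ccr6, while the place of Cxcr4 among them turned with the pseudocount. It ranked 86 among the log2 fold changes of the 1072 tested genes, with Ccr7 at rank 113, Ccr6 at 159 and Cxcr4 at 209.

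For Ccr6, the receptor for CCL20, the spleen libraries gave 65.3, 69.2 and 67.2 FPKM and the cord libraries 205, 316 and 248 FPKM. Here too the groups were far apart, and the spinal cord libraries differed among themselves by up to 1.54-fold. The mean was 3.81-fold higher in the cord, a log2 fold change of 1.89 ± 0.17 (SE, adjusted p = 2.92e-06 in limma).

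Cxcr4, the receptor for CXCL12, was the scarce one. It stood at 0.70 and 0.41 FPKM in spleen libraries 1 and 3 and was listed at 0 in spleen library 2, against 5.61, 3.31 and 1.88 FPKM in the spinal cord. The groups did not overlap, but the spinal cord libraries spanned 2.98-fold, the widest spread of the 4 genes. Its log2 fold change was 1.70 ± 0.35 (SE, adjusted p = 0.00083 in limma) and lay between 1.40 (without spinal cord library 1) and 2.00 (without spinal cord library 3) when single libraries were left out. A pseudocount of 0.1 in place of 1 gave 3.29, so the size of this change cannot be stated closely, while its direction and its call held.

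**Figure D1:**
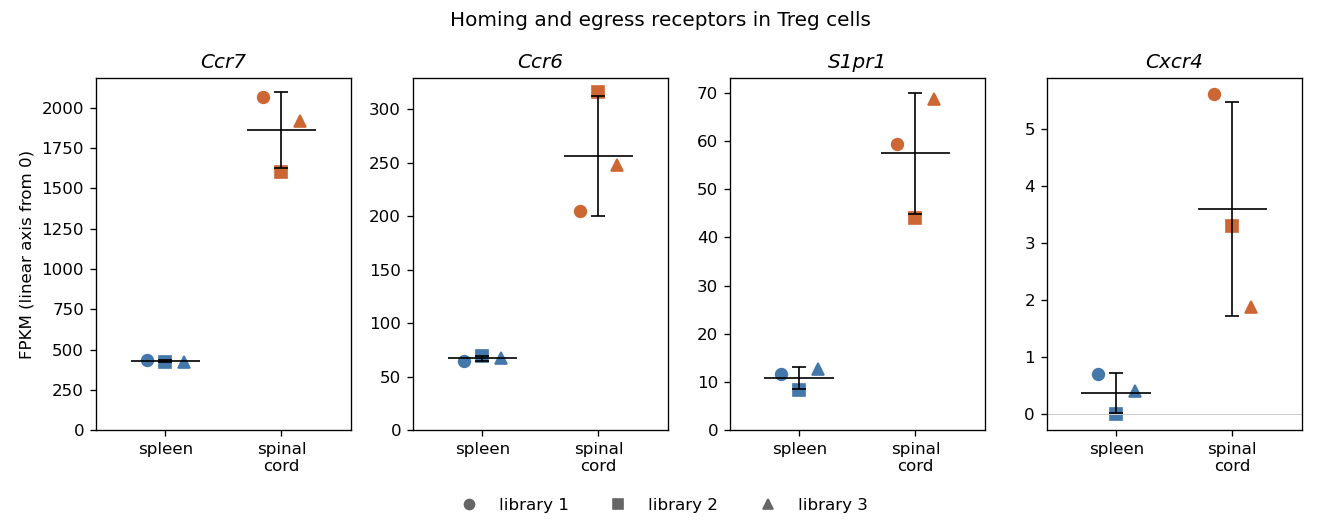
FPKM of Ccr7, Ccr6, S1pr1 and Cxcr4 in Treg cells of the spleen (blue) and the injured spinal cord (orange), each panel with its own linear axis from 0. Points are libraries, bars the mean and SD of 3, and in each panel the lowest spinal cord point lies above the highest spleen point.

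The log2 fold change of the authors' deposited table was 2.24 for Ccr7 (Q = 4.97e-74), 2.52 for S1pr1 (Q = 4.01e-23), 2.04 for Ccr6 (Q = 3.57e-31) and 3.41 for Cxcr4 (Q = 0.0251). Both tables hold only genes that passed such a test, so the calls of the 4 genes have to be read against the background. Of the 1072 tested genes 99.6% were called in either direction and 61% were called higher in the spinal cord, and 59% were higher without overlap of the groups. A count of 4 of 4 says little beside these shares. The median log2 fold change was 2.00 over the 4 genes and 0.95 over all tested genes. The median of all tested genes fell to 0.09 when the libraries were given equal totals and to 0.54 after quantile normalization. All 4 genes were still called higher under both scalings, where 24.8% and 46.3% of tested genes were called higher and 63.4% and 84.9% were called in either direction. Genes called higher numbered 266 with equal totals against 654 as deposited, while 414 genes, 38.6%, were called lower both times. Because these are bulk samples, a change in the share of cells that express a gene and a change in the RNA per cell cannot be told apart.

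With equal totals the log2 fold change was 1.18 for Ccr7, 0.97 for Ccr6, 1.40 for S1pr1 and 1.28 for Cxcr4. After quantile normalization these values were 1.01, 1.26, 2.01 and 1.19 in the same order. Relative to the median of all tested genes, S1pr1 lay 1.33 higher with the values as deposited, 1.31 with equal totals and 1.47 after quantile normalization. For Ccr7 the same distance was 1.16, 1.09 and 0.47, and for Ccr6 it was 0.94, 0.87 and 0.72. Cxcr4 lay 0.74, 1.19 and 0.65 above the median.

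**Figure D2:**
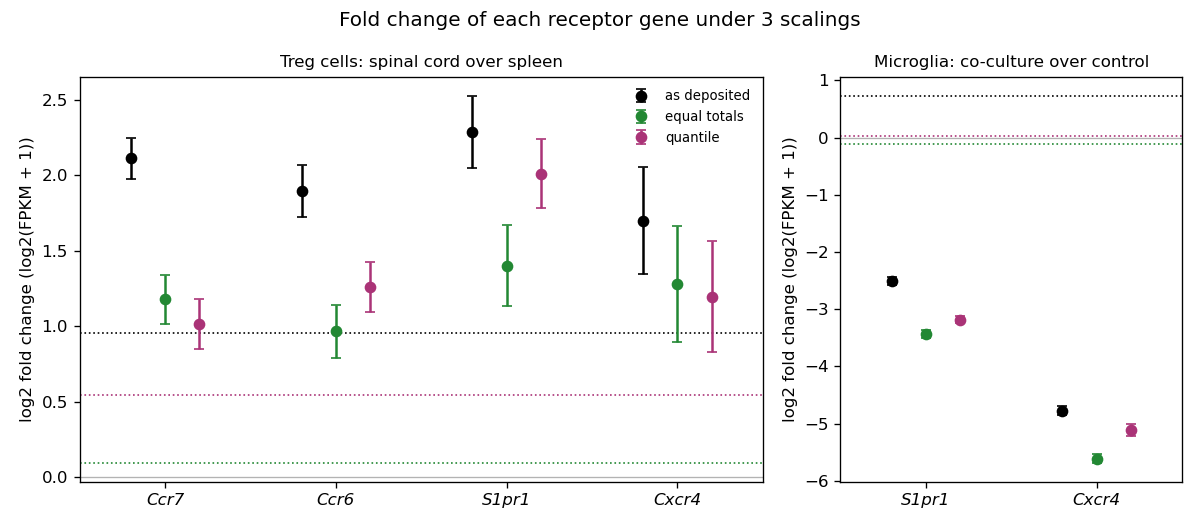
Log2 fold change (y axis, log2(FPKM + 1) scale) of each receptor gene with the values as deposited (black), with equal library totals (green) and after quantile normalization (purple), for Treg cells (left) and microglia (right). Bars are SEs from limma with 3 libraries per group, and dotted lines are the median of all tested genes under each scaling, which shows that the Treg genes stay above and the microglia genes below that median.

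Since FPKM is scaled by length, the levels of the genes can be set beside each other. The order was the same in all 6 Treg libraries, Ccr7 first, then Ccr6, S1pr1 and Cxcr4, and no gene's range within a tissue reached that of its neighbour in the order. Among the 1284 genes of the selected Treg table, Ccr7 ranked from 27 to 30 by FPKM in the spleen libraries and from 10 to 18 in the spinal cord libraries. S1pr1 moved from between rank 515 and 614 to between 199 and 264. Ccr6 moved from between 151 and 159 to between 62 and 88. Cxcr4 stood between ranks 1017 and 1116 in the spleen and between 806 and 989 in the spinal cord.

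Ratios of FPKM within a library are not altered by rescaling that library as a whole. For the 3 pairs of Ccr7, Ccr6 and S1pr1 the groups overlapped. Ccr7 exceeded Ccr6 6.65-fold, 6.12-fold and 6.32-fold in spleen libraries 1, 2 and 3, and 10.1-fold, 5.07-fold and 7.74-fold in spinal cord libraries 1, 2 and 3. The spinal cord values lay on both sides of the spleen values and were more spread. Ccr7 exceeded S1pr1 37.4-fold, 50.4-fold and 33.5-fold in the spleen and 34.8-fold, 36.4-fold and 27.9-fold in the spinal cord. Ccr6 exceeded S1pr1 5.63-fold, 8.22-fold and 5.30-fold in the spleen and 3.46-fold, 7.18-fold and 3.61-fold in the spinal cord. Those ranges overlapped as well.

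Across the 6 pairs of the 4 genes the two-sided exact permutation test of the log2 ratio gave p between 0.30 and 0.80, and between 0.72 and 0.80 after Benjamini-Hochberg adjustment over the pairs. With 3 libraries against 3 that test cannot go below 0.10, so it could not have passed 0.05. For the pairs of Ccr7, Ccr6 and S1pr1 the difference of the mean log2 ratios, spinal cord minus spleen, was 0.22 for Ccr7 over Ccr6, -0.18 for Ccr7 over S1pr1 and -0.40 for Ccr6 over S1pr1. The first of these was -0.01 without spinal cord library 1 and 0.48 without spinal cord library 2. The third was -0.73 without spinal cord library 2 and -0.21 without spinal cord library 1. The second came nearest to 0 without spleen library 2, at -0.02. Quantile normalization, which does alter such ratios, put the log2 fold change of Ccr7 (1.01) under that of Ccr6 (1.26), the reverse of their order with the values as deposited. Ratios to Cxcr4 turned their sign with the pseudocount and are given no direction.

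**Figure D3:**
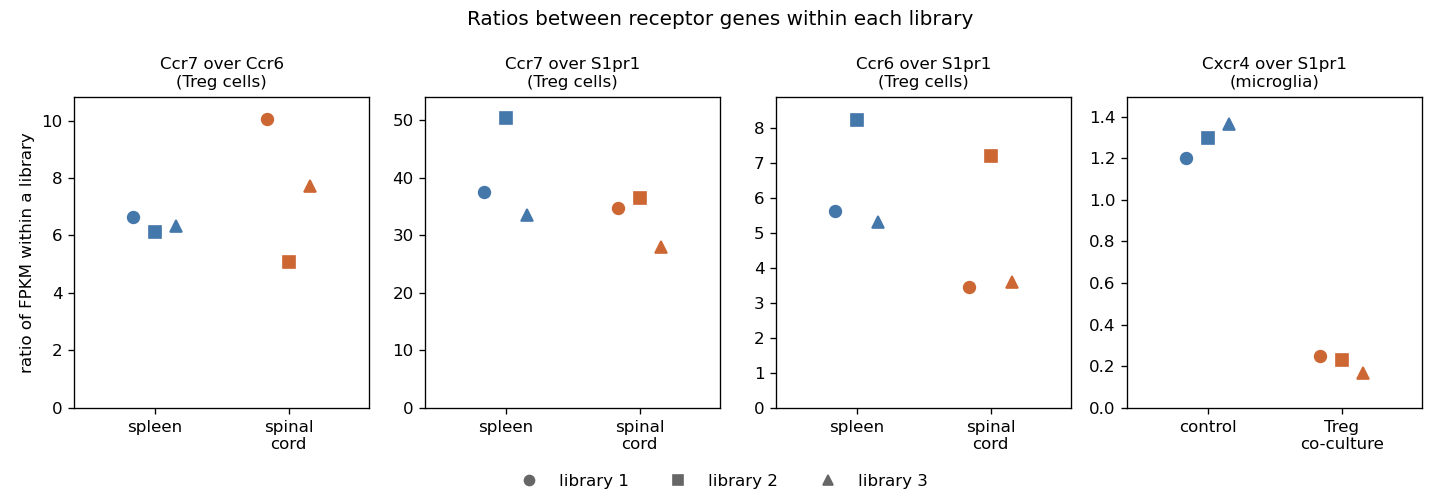
Ratio of the FPKM of 2 receptor genes within each library (y axis, linear from 0), for 3 pairs in Treg cells of the spleen and spinal cord and for Cxcr4 over S1pr1 in control and co-cultured microglia. Points are single libraries, and the groups overlap in the 3 Treg panels and are apart in the microglia panel, at 1.20 to 1.37 against 0.167 to 0.248.

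Spinal cord library 2 set the receptors against each other. It held the highest Ccr6 of its group, 316 FPKM, together with the lowest Ccr7, 1603 FPKM, and the lowest S1pr1, 44.0 FPKM. Without this library the log2 fold change of Ccr6 was 1.73 and that of Ccr7 2.22, and S1pr1 stood at 2.46. All 4 calls held without any single library. Cxcr4 followed another order, with its highest value in spinal cord library 1 and its lowest in library 3.

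For each receptor the 3 tested genes with the nearest profile were found by the root mean square difference of centred log2(FPKM + 1) values over the 6 Treg libraries. Nearest to Ccr7 were Mxd1 (difference 0.08), Ecm1 (0.10) and Sgip1 (0.12). Nearest to S1pr1 were Serpinb9 (0.09), Gsn (0.16) and Slfn5 (0.17), and Ccr7 itself was the gene at rank 10, at 0.22. Nearest to Ccr6 were Tm6sf2, S100a11 and Ttc39c, between 0.11 and 0.12. For Cxcr4 they were Herc6, Milr1 and Elovl4, between 0.18 and 0.24. Because 1 is added to each FPKM, a scarce gene can lie near an abundant one though their folds differ. Among these neighbours Tm6sf2 had means of 0 in the spleen and 3.32 FPKM in the cord, and Slfn5 of 0.157 and 4.79 FPKM. Within the set of 4, Ccr7 and S1pr1 were the closest pair, and S1pr1 and Cxcr4 the most distant, at 0.54.

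Other genes of cell trafficking came from lists of 20 other chemokine receptors, 6 ligands of the 4 receptors, 16 S1P genes, 15 regulators, 25 genes of G protein signalling and 21 adhesion genes. Those with a row for Treg cells numbered 2, 0, 1, 4, 2 and 4 in that order, and 2, 0, 1, 4, 2 and 3 were tested. The adhesion gene below the filter was Itga4. S1pr3, another S1P receptor, gave 1.81, 1.89 and 0.90 FPKM in spleen libraries and 10.1, 11.7 and 11.6 FPKM in cord libraries. Its log2 fold change of 2.28 was close to that of S1pr1.

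Of the 4 tested regulators 2 rose and 2 fell. Hif1a, the hypoxia factor known to drive CXCR4, rose from 64.9 ± 5.37 to 285 ± 98.0 FPKM (SD, n = 3 each). Its values of 394, 258 and 204 FPKM in spinal cord libraries 1, 2 and 3 put these libraries in the same order as Cxcr4 did. Cxcr6, Cx3cr1, Itgb3, Itga4, Nrp1, the B cell marker Cd79b and the macrophage marker C1qb gave that order too. The order was thus not particular to Hif1a and Cxcr4, and a link between them was not tested. Satb1, a chromatin organiser of T cells, rose to 31.8, 38.6 and 22.7 FPKM, a call that equal totals ended (limma adjusted p = 0.0696). Id3, an inhibitor of E proteins, fell from 73.8 ± 16.6 to 25.2 ± 5.26 FPKM. The other chemokine receptors Cxcr6 and Cx3cr1 rose to 40.9 ± 5.57 and 11.6 ± 0.815 FPKM, and both calls ended with equal totals (limma adjusted p = 0.336 and 0.106). Among adhesion genes the integrin gene Itgb3 was listed at 0 in spleen libraries 1 and 2 and at 0.10 FPKM in spleen library 3, against 5.18, 3.35 and 2.84 FPKM in the cord. The calls of Gnai2, Rgs2 and Pecam1, which were also higher, ended with equal totals. That of Gnai2 also ended without spleen library 1 (limma adjusted p = 0.0523), and that of Pecam1 without spleen library 1 or spinal cord library 1 (limma adjusted p = 0.0761 and 0.105).

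Markers of cells that can carry the same receptors were read beside these results. Of 18 Treg and T cell identity genes 5 had a row, all present in every Treg library. Ctla4, Tnfrsf18 and Cd2 rose in the cord, of which Cd2 lost its call with equal totals (limma adjusted p = 0.128). After quantile normalization, which keeps only ranks, the calls of Cd2 and Tnfrsf18 ended (limma adjusted p = 0.634 and 0.435) and that of Ctla4 held. By FPKM Cd2 lay at rank 17 in the spleen and 14 to 18 in the cord, and Tnfrsf18 at 20 to 22 and 19 to 21. So near the top they had little room to rise, and the end of their calls says little about their level. Ctla4 moved from between rank 249 and 279 to between 91 and 100. Nrp1 fell from 14.1 ± 0.644 to 3.86 ± 0.0493 FPKM and Gpr83 from 64.1 ± 6.66 to 28.7 ± 8.85 FPKM (SD, n = 3 each). The summed level of the 5, most of it Cd2 and Tnfrsf18, was 1325 to 1389 FPKM in the spleen and 3108 to 3430 FPKM in the cord. Foxp3, Il2ra and Cd3e are not analysed here. B cells carry CCR6 and CCR7, and of 12 B cell markers 1 had a row, Cd79b, which was listed at 0 in all 3 spleen libraries, against 5.38, 3.13 and 2.66 FPKM in the cord. Of 12 dendritic cell markers 1 had a row, Bst2, at 165 to 191 FPKM in the spleen and 334 to 375 FPKM in the spinal cord. The call of Bst2 ended with equal totals and with quantile normalization (limma adjusted p = 0.944 and 0.254). Of 13 neutrophil markers 2 had a row, and their summed level was 4.22 to 9.77 FPKM in the spleen and 28.4 to 83.0 FPKM in the spinal cord. The 6 of 20 microglia and macrophage markers with a row summed to 25.6 to 35.3 and 81.8 to 99.1 FPKM, with C1qb at 0 in all spleen libraries. The 3 of 12 endothelial markers with a row summed to 39.4 to 44.4 and 163 to 410 FPKM, most of it Ly6c1. Pecam1 overlapped between the tissues, and Kdr was at 0 in all libraries but spinal cord library 2, which held 0.67 FPKM. The sum therefore follows Ly6c1 and does not stand for the 3 markers together. The part of such cells in the receptor values was not tested.

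In microglia cultured with Treg cells both receptor genes with a row were lower than in control microglia, the opposite of their direction in Treg cells of the cord. S1pr1 stood at 82.9, 81.2 and 82.2 FPKM in the control libraries and at 12.7, 13.1 and 15.2 FPKM in co-culture. The libraries within each group lay close together and the groups were far apart. Its mean was 6.01-fold lower in co-culture, and the log2 fold change came to -2.51 ± 0.07 (SE, adjusted p = 4.50e-08 in limma).

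Cxcr4 stood at 99.6, 105 and 112 FPKM in the control libraries and at 3.15, 3.02 and 2.54 FPKM in co-culture. Even the lowest control library was far above the highest co-culture library. Its mean was 36.4-fold lower in co-culture, and the log2 fold change came to -4.77 ± 0.08 (SE, adjusted p = 9.26e-09 in limma). Ordered from the highest log2 fold change to the lowest, Cxcr4 was at rank 1528 and S1pr1 at rank 1504 of 1529 tested genes. The log2 fold change of the authors' deposited table was -4.98 for Cxcr4 and -2.38 for S1pr1 (Q = 0 and 5.10e-256).

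**Figure D4:**
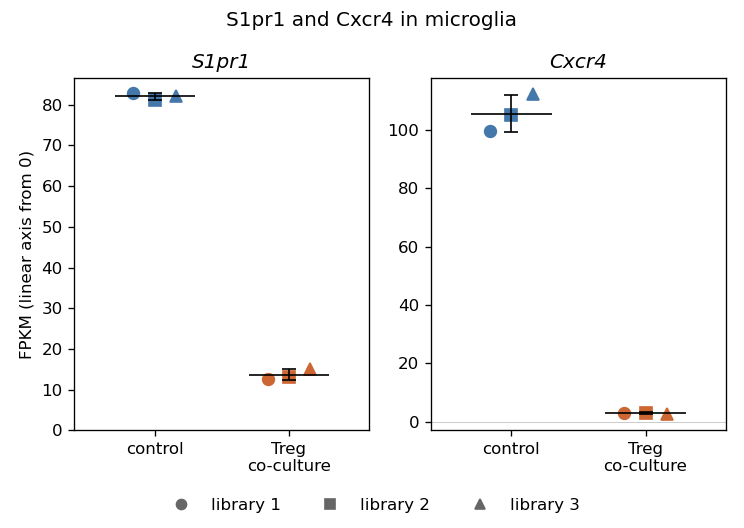
FPKM of S1pr1 and Cxcr4 in control (blue) and Treg co-cultured (orange) primary microglia, each panel with its own linear axis from 0. Points are libraries and bars the mean and SD of 3, and the co-culture points lie at 12.7 to 15.2 FPKM for S1pr1 and 2.54 to 3.15 FPKM for Cxcr4.

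Of the 1529 tested microglia genes 100% were called, 53.4% higher and 46.6% lower in co-culture, and the same shares were higher and lower without overlap of the groups. The calls of S1pr1 and Cxcr4 are read against that share. Their median log2 fold change was -3.64, against 0.74 over all tested genes. The median of all tested genes was -0.11 with equal totals and 0.02 after quantile normalization. With equal totals S1pr1 had a log2 fold change of -3.43 and Cxcr4 of -5.61, and after quantile normalization the values were -3.18 and -5.11. Equal totals left 82.9% of genes called, 35.1% higher and 47.8% lower (537 and 731 genes, against 817 and 712 as deposited), and quantile normalization 94.2%, 47.3% higher and 46.9% lower.

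The order of the 2 genes reversed. Within control libraries 1, 2 and 3 Cxcr4 exceeded S1pr1 1.20-fold, 1.30-fold and 1.37-fold, and within co-culture libraries 1, 2 and 3 it was at 0.248, 0.231 and 0.167 of S1pr1. The groups did not overlap. The difference of the mean log2 ratio, co-culture minus control, was -2.27, and the two-sided exact permutation test gave p = 0.10, the smallest value 3 libraries against 3 allow. This ratio was added after the values were seen. Cxcr4 stood above S1pr1 in each control library and below it in each co-culture library.

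The genes nearest to S1pr1 in profile over the 6 microglia libraries were Adgre5 (root mean square difference 0.03), Slc26a11 (0.05) and Htr2b (0.06). Cxcr4 had no such close companions. Its nearest were Hpgd at 0.42, Dkk2 at 0.52 and Cx3cr1 at 0.54, and S1pr1 was at rank 23, at 1.14.

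The same trafficking lists had 5, 1, 3, 6, 5 and 6 genes with a row for microglia, and 4, 1, 3, 4, 4 and 4 were tested. Of the 4 tested chemokine receptors 2 rose and 2 fell, beside 53.4% of all tested genes called higher and 46.6% called lower. The fall of Cxcr4 was thus not shared by all chemokine receptors, which says little beside these shares. Ccr1, a receptor for inflammatory CC chemokines, rose from 24.0 ± 1.87 to 294 ± 3.61 FPKM (SD, n = 3 each). Cx3cr1 fell from 136 ± 8.86 to 1.45 ± 0.253 FPKM and Cxcr3 from 2.32 ± 0.362 to 0.227 ± 0.0862 FPKM (SD, n = 3 each). Cxcr6 was below the filter. The one ligand with a row was Mif, an alternative ligand of CXCR4, at 255 ± 8.55 and 476 ± 17.8 FPKM, whose log2 fold change of 0.90 became -0.056 with equal totals.

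Around S1pr1, Sphk1, the kinase that makes S1P, rose from 1.30, 1.73 and 2.17 FPKM to 8.91, 9.30 and 9.89 FPKM. Cers6, a ceramide synthase, rose, and Plpp1, a lipid phosphatase, fell from 9.78 ± 1.68 to 2.78 ± 0.359 FPKM. Cd69, whose product removes S1PR1 from the surface of lymphocytes, rose from 0.62, 0.45 and 0.50 FPKM to 8.33, 7.37 and 7.43 FPKM, a log2 fold change of 2.52 ± 0.08 (SE, adjusted p = 7.10e-08 in limma). Klf2, named after its values were seen, was at 7.10 ± 1.02 FPKM in control and at 12.4 ± 0.623 FPKM in co-culture (SD, n = 3 each). Its log2 fold change of 0.73 did not hold its sign with equal totals (-0.14), while that of S1pr1 stayed below 0 under all scalings.

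Hif1a, which rose beside Cxcr4 in Treg cells of the cord, also rose in microglia, from 36.3 ± 2.77 to 135 ± 6.67 FPKM, where Cxcr4 fell. Here too a link between Hif1a and Cxcr4 was not tested. Stat3 rose from 32.1 ± 1.89 to 71.6 ± 0.988 FPKM. Its log2 fold change was 1.13 with the values as deposited, 0.19 with equal totals and 0.20 after quantile normalization. Of the 4 tested genes of G protein signalling 2 fell, Rgs2 and Pik3cg, and 2 rose with the values as deposited. The calls of those that rose, Gna13 and Rgs14 (the latter named after its values were seen), ended with equal totals (limma adjusted p = 0.548 and 0.178). Of the 4 tested adhesion genes 3 rose, Icam1 and Pecam1 among them, and Itga6 fell.

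**Figure D5:**
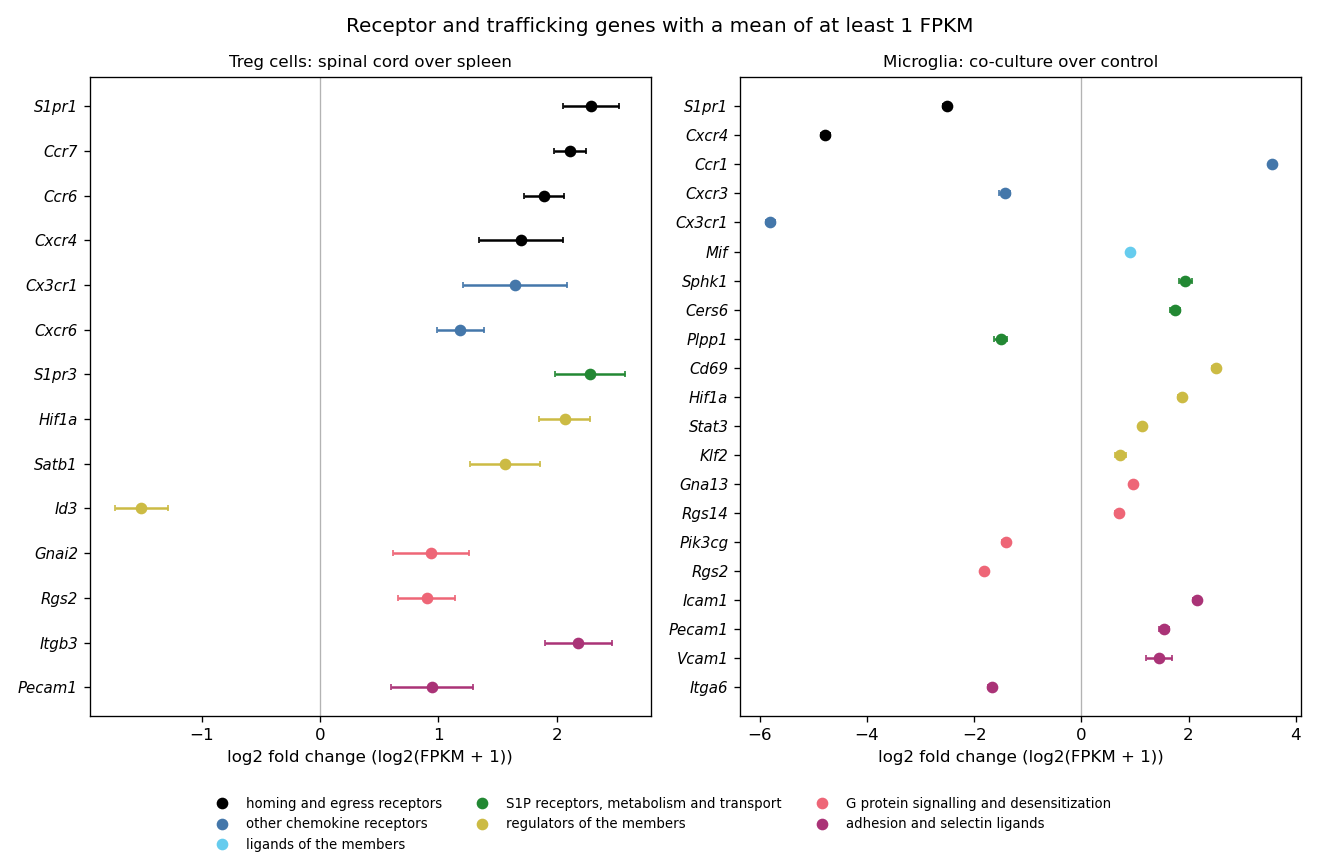
Log2 fold change (x axis, log2(FPKM + 1) scale, bars SE from limma) of the receptor genes (black) and of tested trafficking genes reported here (coloured by list), for Treg cells of the cord over the spleen (left) and co-cultured over control microglia (right). S1pr1 and Cxcr4 lie on the right of 0 in the left panel (2.29 and 1.70) and on the left of 0 in the right panel (-2.51 and -4.77), with the values as deposited.

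Of the 20 microglia and macrophage markers 10 had a row in the microglia table, with summed levels of 5990 to 6153 FPKM in control and 11788 to 11975 FPKM in co-culture. Of these 10 genes 6 rose, C1qa, C1qb and C1qc among them, which make up most of the sum, and 4 fell. C1qa held rank 6 and C1qc rank 2 by FPKM in every library. Quantile normalization therefore gave each of them the same value throughout and could not test their calls. With equal totals the calls of C1qc and Itgam ended (limma adjusted p = 0.0715 and 0.101), which left 4 that rose and 4 that fell. Those that fell were Cx3cr1, Tmem119 (9.86 ± 0.745 to 3.92 ± 0.304 FPKM), Gpr34 (31.8 ± 0.643 to 4.02 ± 0.259 FPKM) and Cd14 (457 ± 16.6 to 151 ± 12.2 FPKM, SD, n = 3 each). P2ry12 is not analysed here. Of the 18 Treg and T cell identity genes 3 had a row, Cd28, Cd5 and Ikzf2, and their summed level was 11.6 to 12.7 FPKM in control and 2.47 to 2.73 FPKM in co-culture. Most of the control sum was Cd28, at 11.5 ± 0.552 FPKM in control and 1.40 ± 0.0907 FPKM in co-culture. Ikzf2, below the filter, was higher in co-culture, at 1.18, 1.24 and 1.14 FPKM against 0.48, 0.41 and 0.42 FPKM in control. Of 12 dendritic cell markers 5 had a row, and 4 of them rose and Fscn1 fell, beside the 53.4% of all tested genes called higher. The call of Bst2 ended with equal totals and with quantile normalization (limma adjusted p = 0.232 and 0.108). The B cell marker with a row, Blnk, was at 89.2 to 95.9 FPKM in control and 33.9 to 37.6 FPKM in co-culture, the 2 of 12 endothelial markers summed to 1.39 to 1.72 and 6.53 to 7.67 FPKM, and none of the 13 neutrophil markers had a row. The part of other cells in the values of S1pr1 and Cxcr4 was not tested.

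In all, 207 genes were tested in Treg cells and in microglia, and 39 of them, S1pr1 and Cxcr4 included, were called higher in Treg cells of the cord and lower in co-cultured microglia. Another 142 were called higher in both. The tables were normalized separately, so their levels are set side by side without a test. Cxcr4 stood at 1.88 to 5.61 FPKM in Treg cells of the cord and at 2.54 to 3.15 FPKM in co-cultured microglia, and reached 99.6 to 112 FPKM in control microglia. S1pr1 stood at 44.0 to 68.8 FPKM in Treg cells of the cord, between its levels in co-cultured and in control microglia.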

How the data were processed

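The authors deposited 1 table per comparison with FPKM of 6 libraries at 2 decimals, their own log2 fold change and a Q value (an adjusted p-value). The submitters' processing notes list Bowtie2, RSEM 1.3.1, DESeq2 1.4.5 and GRCm38.p6 and give no role for any. Checked on the values, every gene of the deposited tables has a log2 fold change beyond 1 in size and a Q value below 0.05. The microglia fold change column is headed Young over Control, and no label says what Young refers to. In all 2186 genes its direction was that of co-culture relative to control. Depth is unknown, so no counting intervals are given. Summed FPKM over the selected genes lay between 64893 and 65362 (spleen), 111243 and 134887 (spinal cord), 59529 and 61068 (control microglia), and 115884 and 117408 (co-culture).

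Each table was fitted whole and separately: genes with a mean of at least 1 FPKM (1072 of 1284 and 1529 of 2186), log2(FPKM + 1), limma 3.58.1 in R 4.3.3 (eBayes with trend), Benjamini-Hochberg adjustment over all genes kept, threshold 0.05, without a replicate block. The fit was tested on simulated data. Folds are ratios of mean FPKM. Within-library ratios used log2(FPKM + 1) and a two-sided exact permutation test (scipy 1.17.1, Python 3.11.15). Members of lists were named by rule: up to 3 per list with the largest absolute log2 fold change, and all chemokine receptors and ligands with a row. Some genes that the rule names are not reported here, though the counts over lists include them. Lists were matched by symbol, and genes that have no row are not analysed here. Coordinates and promoter sequences are from RefSeq (GRCm38.p6), and gene models from GENCODE M21. The members and lists were chosen with earlier results of these data known.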

Additional observations from a re-analysis of the deposited data

How the results depend on the processing

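The log2 fold changes of the 4 receptors in Treg cells and of the 2 in microglia kept their direction and their limma call under all 13 alternatives each (pseudocounts of 0.1 and 0.5, no filter, equal totals, quantile normalization, the replicate number as a block, eBayes without trend, and each library left out). Left-out libraries gave 2.03 to 2.22 for Ccr7, 1.73 to 2.04 for Ccr6, 1.40 to 2.00 for Cxcr4 and 2.13 to 2.46 for S1pr1 in Treg cells, and -4.82 to -4.70 for Cxcr4 and -2.58 to -2.46 for S1pr1 in microglia. The largest adjusted p over these alternatives was 0.00824, for Cxcr4 in Treg cells after quantile normalization. The number of Treg genes called fell from 1068 to 680 with equal totals, which rescale libraries over genes selected for a change. With a pseudocount of 0.1 the difference of log2 ratios, spinal cord minus spleen, was -1.18 for Ccr7 over Cxcr4, -1.39 for Ccr6 over Cxcr4 and -0.91 for S1pr1 over Cxcr4, against 0.41, 0.19 and 0.59, since Cxcr4 lay under 1 FPKM in the spleen. Of 30 results for other named genes, Mif in microglia changed sign with equal totals (-0.056) and quantile normalization (-0.023), and Klf2 with equal totals (-0.14). Of 390 alternatives for these genes 15 ended a call, these 3 included, 9 of them with equal totals.

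The correlation of the deviations of same-numbered libraries lay between -0.05 and -0.003 in Treg cells and between -0.04 and 0.17 in microglia. Differently numbered libraries gave -0.01 to 0.06 in Treg cells and -0.29 to 0.27 in microglia. With 3 libraries per group these values cannot decide whether the replicate numbers pair the libraries. With the replicate block 1064 Treg genes and 1529 microglia genes were called. FPKM without totals limits what can be said of Cxcr4 in the spleen, where 1 library is listed at 0.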
